A study of Mus musculus with 18 samples.

Results

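The genes described here had a higher or a lower signal in Wnt-low lung epithelial cells than in both Wnt-high and Wnt-negative cells of reporter mice. They were taken from the contrast of the 6 Wnt-low arrays with the midpoint of the Wnt-high and Wnt-negative group means, with the run of experiments (2 to 5, or 7 to 9) as a block. A gene belonged to the set when this contrast passed an adjusted p of 0.05 and its Wnt-low mean lay above both other means, or below both, in each run. Of 30142 genes, each represented by 1 probe set, 2090 lay above both groups and 696 lay below both. The set therefore leaves out genes that run in a graded order from Wnt-negative through Wnt-low to Wnt-high cells.

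All 18 arrays came from adult TCF/Lef:H2B/GFP mice aged 8 to 12 weeks, which carry a green fluorescent histone under TCF/Lef control, and no other allele or treatment is given. Lungs were taken with trachea and bronchi and digested with dispase, although the series speaks of the distal lung. Endothelial and blood cells were depleted through CD31 and CD45, epithelial cells were enriched with EpCAM beads, and living EpCAM+ cells were sorted by GFP as Wnthigh, Wntlow or Wntnegative, 6 arrays each. Experiments 4, 5, 7, 8 and 9 gave all groups, experiment 2 a Wnt-high array alone, and experiment 3 a Wnt-low and a Wnt-negative array. Each array held RNA of 3 to 4 pooled animals, amplified from 8 ng. The groups differ by a reporter level and not by a manipulation of the pathway, and a histone-bound GFP can outlast the signal that induced it. The p-values therefore measure the spread between pools of animals, not between single animals.

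In canonical Wnt signalling, secreted Wnt ligands stabilise β-catenin, which joins TCF/Lef factors in the nucleus and activates target genes, several of which feed back on the pathway. The airway is lined by club cells, goblet cells, ciliated cells and rarer types, while the alveoli hold flat type I and surfactant-making type II cells. Club and goblet cells secrete mucins, antimicrobial proteins and secretoglobins, metabolise foreign compounds and set the ion and water content of the surface liquid. Goblet cells depend on the transcription factor SPDEF, and multiciliated cells arise from secretory or basal precursors through GEMC1, MCIDAS and the miR-34 and miR-449 families.

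Values are log2 signals, and background was taken as the 95th percentile of 1225 olfactory receptor genes, 4.80 in experiments 2 to 5 and 3.82 in experiments 7 to 9. A group is called at background for a gene when its mean was at or below this level in either run or in both. Single arrays of such a group can lie above it. A gene counted as above background when its highest group mean exceeded the level in each run. The array medians were 4.62 to 4.77 in the first run and 3.55 to 3.69 in the second, so ranges over a group of 6 arrays span both runs and overlap was judged within a run. Epcam, the sorted surface antigen, lay at 9.85 to 11.68 in Wnt-low, 9.85 to 11.62 in Wnt-high and 9.66 to 11.67 in Wnt-negative arrays. The endothelial genes Pecam1, Cdh5 and Emcn, the leukocyte gene Ptprc and the collagen gene Col1a1 were at background in all groups. Other genes of these lists were above background in Wnt-low arrays. They were Esam and Kdr of 11 endothelial genes, Cd68, Csf1r, Marco and S100a9 of 14 immune genes, and Dcn, Eln and Fn1 of 11 fibroblast and smooth muscle genes. The Wnt-high arrays of experiments 2 to 5 differed widely: the median over the alveolar type II list was 15.2 in experiment 4, 12.7 in experiment 5 and 9.75 in experiment 2. Over this list the median deviation from the other Wnt-high arrays of the run was 3.28 for experiment 4 and -3.26 for experiment 2. The Wnt-high array of experiment 4 had the highest Wnt-high signals for several genes below. Within the Wnt-low group the median of the ciliated list ran from 8.17 to 12.94 and that of the type II list from 11.14 to 16.93 over both runs.

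Far more genes lay above both groups than below both. The midpoint contrast alone called 3058 genes higher (10.1% of those tested) and 1428 lower (4.74%), and the rule of order in each run left 2090 (6.93%) above and 696 (2.31%) below. A gene at 1 end of the graded axis can pass the midpoint test, so each gene was also tested against the nearer of the other groups, with the larger p of the pair adjusted over all genes (limma). This stricter test left 570 genes above both (1.89%) and 59 below both (0.196%), and all of them also met the rule. Among the 16012 genes above background the shares were 3.41% (546 genes) and 0.368% (59 genes). Genes above both made up 75% of those meeting the rule and 90.6% of those passing the stricter test. With quantile normalization over all arrays these shares were 52.4% and 80.4%, and that of the midpoint calls moved from 68.2% to 47.3%. With each array centred on its median, the share above both by the rule was 64.3%. The stricter counts depended on the arrays: 329 above and 24 below without experiment 5, 337 and 21 without experiment 7, 276 and 14 without experiment 8, and 380 and 14 without experiment 9. Without experiment 4, 92 lay below, without its Wnt-low array alone 129, and without the Wnt-low array of experiment 5, 37. In pooled cells, more cells of a type and more RNA per cell cannot be told apart.

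**Figure D1:**
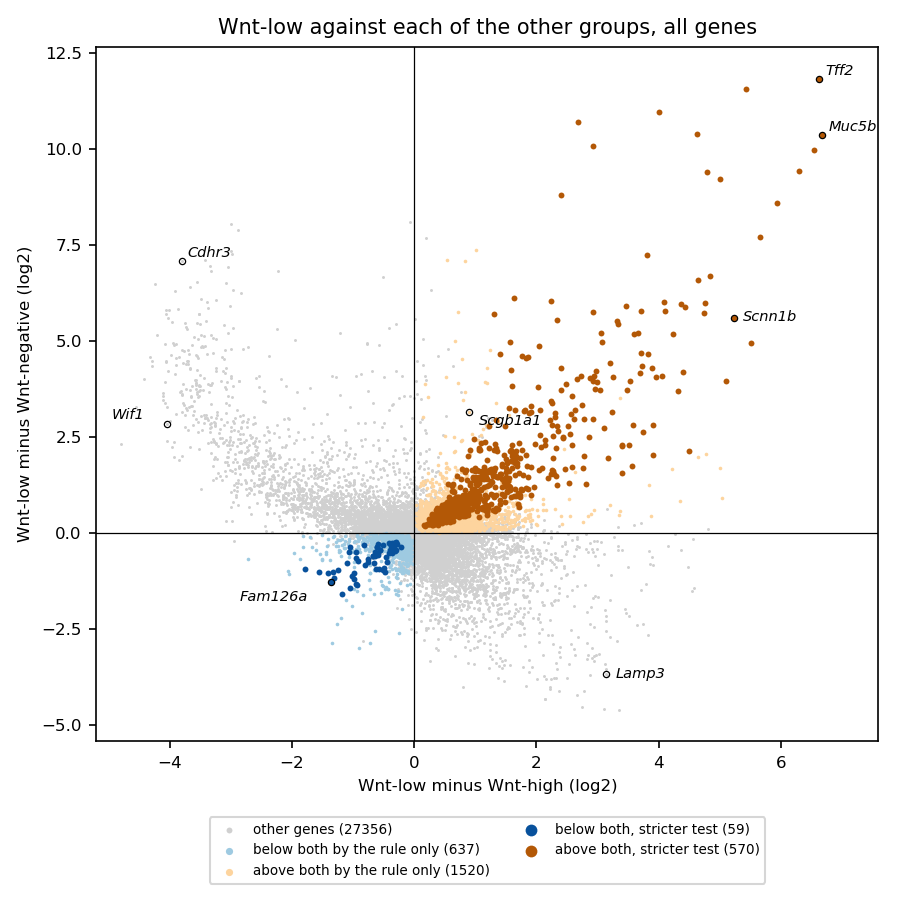
Difference of the Wnt-low mean from the Wnt-high mean (x axis, log2) and from the Wnt-negative mean (y axis, log2) for each of 30142 genes. The 570 genes above both groups by the stricter test reach 6.68 above the nearer group (Muc5b), while the 59 below both stay within 1.28 of it (Fam126a), and graded genes such as Cdhr3 and Lamp3 lie in the other quadrants.

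The differences above were also larger than those below. Among the 570 genes, the median distance from the nearer group was 0.92, with 256 genes at 1 log2 unit or more, 104 at 2 or more and 24 at 4 or more. Among the 59 genes it was 0.50, with 8 at 1 or more and 0 at 2 or more. In 450 of the 570 and in 40 of the 59, every Wnt-low array lay beyond every other array of its run. Of all 30142 genes, 614 met the rule above both groups without such overlap, and 64 below both. The same values chose the genes, so these counts describe them and are no separate test. The nearer group was Wnt-high for 335 of the 570 and Wnt-negative for 235, and in 94 it lay at background. A difference from a group at background is a lower bound and is given as "at least". At the edge of the rule, Psmg4 (0.66 above the midpoint, adjusted p = 0.0497) and Cox19 (0.20, 0.0494) were just inside, and Tma7-ps (0.38, 0.0501) and Uqcr11 (0.33, 0.0504) just outside.

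The gene lists used from here on were chosen with earlier results of these data known, and some genes stand on more than 1 list. The share of a list therefore describes it and is no independent test. For comparison, 1.89% of all genes and 3.41% of the genes above background lay above both groups by the stricter test. Mucin and goblet cell genes formed one of the groups with the highest share of members. Of 24 measured, 12 lay above both groups by the stricter test and 0 below, and the median difference from the midpoint was 1.50, against -0.02 over all genes. Muc5b, which encodes the main gel-forming mucin of the resting mouse airway, gave 13.69 to 17.30 (median 15.46) in Wnt-low arrays, 6.83 to 12.79 (median 8.26) in Wnt-high and 4.43 to 5.74 (median 5.17) in Wnt-negative. Its Wnt-low mean exceeded the Wnt-high mean by 6.68 (SE 0.82, adjusted p = 0.000309). No Wnt-high or Wnt-negative array reached a Wnt-low array, and the highest Wnt-high value was that of experiment 4, without which the difference was 7.54. Tff2, a trefoil peptide secreted with mucus, gave 15.05 to 17.54 (median 15.77) in Wnt-low, 7.76 to 13.98 (median 8.65) in Wnt-high and 3.70 to 5.00 (median 4.25) in Wnt-negative arrays. It was 6.63 (SE 0.83, adjusted p = 0.000373) above Wnt-high, 7.55 without the Wnt-high array of experiment 4, and at background in Wnt-negative cells.

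The inducible gel-forming mucin gene Muc5ac, the direct neighbour of Muc5b on the chromosome, also lay above both groups. Its signals were 5.72 to 7.61 in Wnt-low, 3.79 to 5.67 in Wnt-high and 3.52 to 4.74 in Wnt-negative arrays, and it was 2.14 (SE 0.32, adjusted p = 0.00134) above Wnt-high. Spdef, the goblet cell transcription factor, was 0.67 (SE 0.10, adjusted p = 0.00127) above its nearer group, Wnt-negative, with 4.99 to 6.88 in Wnt-low arrays. Agr2, a disulfide isomerase needed to fold mucins, was 2.88 (SE 0.43) above Wnt-high, and Gp2, a glycoprotein that binds bacteria, at least 3.90 (SE 0.63). The cell-surface mucin gene Muc20 was 3.70 (SE 0.49) above Wnt-negative, its nearer group. The groups did not overlap within a run for any of these 7 genes. Ern2, which encodes the IRE1β stress sensor of mucous cells, was at least 1.56 (SE 0.24, adjusted p = 0.00159) above Wnt-high and lay at background in both other groups.

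**Figure D2:**
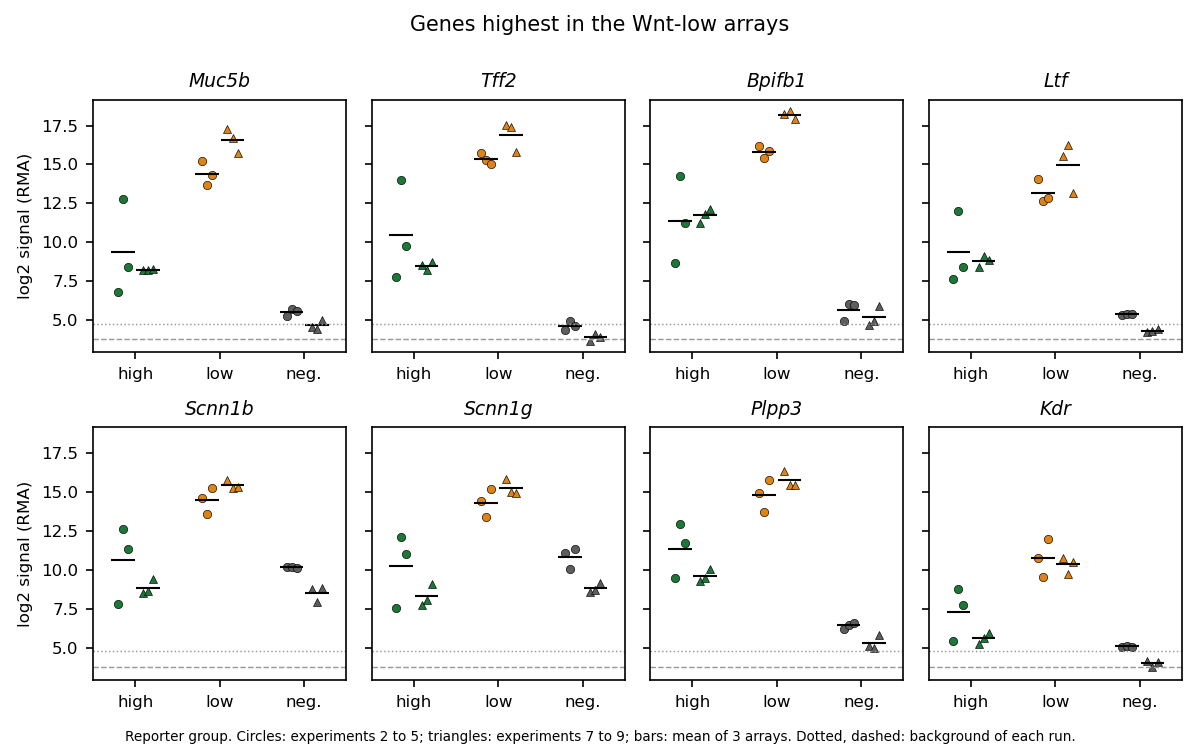
Log2 signal of 8 genes in each of the 18 arrays, by reporter group; circles are experiments 2 to 5, triangles experiments 7 to 9, bars the mean of 3 arrays, and the dotted and dashed lines the background of each run. In each panel the Wnt-low arrays lie above every other array of their run, and the highest Wnt-high point for Muc5b, 12.79, is experiment 4.

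Secreted defence proteins showed the same order. Of 31 measured, 12 lay above both groups and 0 below by the stricter test, with a median of 0.09 from the midpoint, so the list was split between members far above and members that differed little. Bpifb1, a bactericidal permeability-increasing family protein of the airway, gave 15.41 to 18.43 (median 17.03) in Wnt-low, 8.66 to 14.27 (median 11.55) in Wnt-high and 4.70 to 6.04 (median 5.46) in Wnt-negative arrays. It was 5.44 (SE 0.73, adjusted p = 0.000554) above Wnt-high. Ltf, which encodes the iron-binding protein lactoferrin, gave 12.67 to 16.24 (median 13.63), 7.68 to 12.01 (median 8.66) and 4.27 to 5.42 (median 4.90), and was 5.00 (SE 0.72, adjusted p = 0.00103) above Wnt-high. Pglyrp1, a peptidoglycan-binding protein, was 4.75 (SE 0.66, adjusted p = 0.000802) above Wnt-high, with 10.71 to 14.02 in Wnt-low arrays and at most 9.70 elsewhere. For all 3 the groups were separate within each run.

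Club cell genes mostly stood above both groups, but less so for the best known markers. Of 25 measured, 21 met the rule and 13 passed the stricter test, with a median of 2.97 from the midpoint. The club cell secretoglobin gene Scgb1a1 gave 18.42 to 18.98 in Wnt-low, 16.38 to 18.42 in Wnt-high and 14.75 to 16.91 in Wnt-negative arrays. It was 2.03 (SE 0.28, adjusted p = 0.000167) above the midpoint but 0.90 (SE 0.33) above Wnt-high, with an adjusted p of 0.318 in the stricter test. Its Wnt-low mean was within 1 log2 unit of the array maximum, where the scale has little room left. Scgb3a2, Cyp2f2 and Aldh1a1, named after their values were seen, also met the rule, at 1.24, 0.17 and 0.54 above Wnt-high, and did not pass the stricter test (adjusted p = 0.319, 1 and 1). The members that passed it included Gabrp, a subunit of GABA-gated chloride channels, with 15.44 to 18.09 (median 17.25) in Wnt-low, 9.53 to 14.79 (median 12.41) in Wnt-high and 5.65 to 7.96 (median 6.56) in Wnt-negative arrays. Gabrp was 4.64 (SE 0.74, adjusted p = 0.00212) above Wnt-high.

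Other secretory cell genes of this list were Fmo2, a flavin monooxygenase, at 4.75 (SE 0.60, adjusted p = 0.000394) above Wnt-high, and the secretoglobin gene Scgb3a1, at 4.01 (SE 0.83, adjusted p = 0.0152). Scgb3a1 approached the array maximum in Wnt-low arrays (17.70 to 19.71) and spread widely in Wnt-high (11.23 to 17.07). Its call ended without experiment 5, 7, 8 or 9 (adjusted p 0.0755 to 0.0992). Retnla, a secreted resistin-like protein, was 3.96 (SE 0.80, adjusted p = 0.0129) above Wnt-high, and its call ended without experiment 5, 8 or 9 (adjusted p up to 0.0833). In each of these genes every Wnt-low array lay above the other arrays of its run.

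Several airway ion transport genes lay above both groups, among them subunits of the epithelial sodium channel. Of 36 measured, 9 lay above both groups and 0 below by the stricter test, with a median of 0.58 from the midpoint. Scnn1b, the β subunit of the channel that absorbs sodium from airway surface liquid, gave 13.62 to 15.79 (median 15.27) in Wnt-low, 7.86 to 12.65 (median 9.05) in Wnt-high and 7.99 to 10.22 (median 9.49) in Wnt-negative arrays. It was 5.23 (SE 0.68, adjusted p = 0.000449) above Wnt-high. Scnn1g, the γ subunit and a chromosomal neighbour, gave 13.39 to 15.83 (median 14.97), 7.57 to 12.13 (median 8.62) and 8.59 to 11.38 (median 9.64), and was 4.95 (SE 0.71, adjusted p = 0.00103) above Wnt-negative. Both other groups thus lay close together for these subunits, and neither reached the Wnt-low arrays of its run.

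The same list held Lrrc26 and Chad, which both count among its 9 members above both groups. Lrrc26, an auxiliary subunit of large-conductance potassium channels in secretory epithelia, gave 11.69 to 13.90 (median 13.56) in Wnt-low, 4.99 to 10.47 (median 6.42) in Wnt-high and 3.40 to 5.42 (median 4.80) in Wnt-negative arrays. It was 5.93 (SE 0.76, adjusted p = 0.000414) above Wnt-high. Chad encodes chondroadherin, a matrix protein and not an ion channel, and gave 12.99 to 15.32 (median 14.01), 5.13 to 11.29 (median 6.92) and 3.33 to 4.92 (median 4.12). It was 6.55 (SE 0.80, adjusted p = 0.000305) above Wnt-high and at background in Wnt-negative cells. Both are printed with the bases before their start sites, beside Bpifb1 and Gabrp, because each of these leading genes holds a word known to be bound by TCF/Lef or forkhead factors.

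The 250 bases before the start site were searched on both strands for the TCF/Lef words CTTTGAT and CTTTGAA and the forkhead words TGTTTAC and TGTTTGC. RefSeq promoters (GRCm38.p6) were found for 11 of the 15 genes with the largest differences, and for 423 of the 570 genes in all. Matches are in capitals: the Lrrc26 window (chr2:25289661-25289910, plus strand) holds 1 TCF/Lef word 181 bases before the start, and the Chad window (chr11:94564797-94565046, plus strand) holds a forkhead word on each strand, overlapping each other, 222 and 217 bases before it. The first of 2 Bpifb1 windows (chr2:154190568-154190817, plus strand) holds 1 forkhead word on the opposite strand, 43 bases before the start. The Gabrp window (chr11:33578958-33579207, minus strand) holds 2 TCF/Lef words on the opposite strand, 151 and 127 bases before it. Each of these windows holds words of 1 of the motifs and not of the other.
Lrrc26: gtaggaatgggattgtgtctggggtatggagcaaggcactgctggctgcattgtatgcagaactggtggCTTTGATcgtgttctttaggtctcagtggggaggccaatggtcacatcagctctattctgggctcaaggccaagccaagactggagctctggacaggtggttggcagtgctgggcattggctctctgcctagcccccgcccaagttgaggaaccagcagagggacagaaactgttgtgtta
Chad: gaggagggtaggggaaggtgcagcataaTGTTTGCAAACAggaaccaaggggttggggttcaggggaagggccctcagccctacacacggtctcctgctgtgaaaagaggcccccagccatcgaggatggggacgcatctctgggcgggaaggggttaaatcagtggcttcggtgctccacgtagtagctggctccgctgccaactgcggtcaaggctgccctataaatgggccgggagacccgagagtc
Bpifb1: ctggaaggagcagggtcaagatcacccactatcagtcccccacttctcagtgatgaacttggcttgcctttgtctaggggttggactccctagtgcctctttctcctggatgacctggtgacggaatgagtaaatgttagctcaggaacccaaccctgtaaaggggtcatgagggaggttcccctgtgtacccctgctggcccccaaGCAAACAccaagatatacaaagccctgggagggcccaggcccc
Gabrp: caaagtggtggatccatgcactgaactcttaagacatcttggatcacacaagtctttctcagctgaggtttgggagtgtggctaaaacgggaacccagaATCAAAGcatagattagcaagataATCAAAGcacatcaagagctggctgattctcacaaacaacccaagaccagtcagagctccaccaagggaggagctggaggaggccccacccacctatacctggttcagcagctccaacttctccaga

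Across all members these words were about as frequent as elsewhere. A TCF/Lef word was present in 36 of the members' 539 promoter windows (6.68%) and in 2457 of all 32851 windows (7.48%). A forkhead word was present in 40 of 539 (7.42%) and in 2396 of 32851 (7.29%). The windows of Scnn1b, Scnn1g, Ltf and Spdef held neither word, which says only that these letters were not in these 250 bases.

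Genes that metabolise foreign compounds and retinoids also held members above both groups. Of 46 measured cytochrome P450 and conjugation genes, 14 lay above both groups and 0 below by the stricter test, with a median of 1.23 from the midpoint. Cyp4a12b and Cyp4a12a, fatty acid hydroxylases, were 6.31 (SE 0.70, adjusted p = 0.000234) and 5.67 (SE 0.62, adjusted p = 0.000225) above Wnt-high. They are near-identical neighbours, so the probe sets may read the same transcripts. Cyp4a12b gave 12.05 to 16.39 in Wnt-low, 6.30 to 10.32 in Wnt-high and 4.22 to 5.35 in Wnt-negative arrays. Fmo1, adjacent to Fmo2, was 3.25 (SE 0.50, adjusted p = 0.00163) above Wnt-high, and the glutathione transferase gene Gsta3, which shares sequence with other Gsta genes, 3.08 (SE 0.40, adjusted p = 0.000449).

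Of 24 retinoid metabolism genes, 6 lay above both groups and 0 below, with a median of 0.02. Adh7, an alcohol dehydrogenase that oxidises retinol, gave 10.17 to 12.85 (median 11.60) in Wnt-low, 6.15 to 9.53 (median 6.63) in Wnt-high and 5.19 to 6.27 (median 5.78) in Wnt-negative arrays. It was 4.43 (SE 0.53, adjusted p = 0.000296) above Wnt-high. Aldh1a7, an aldehyde dehydrogenase, gave 13.62 or more in every array and was 2.36 (SE 0.31, adjusted p = 0.000449) higher in Wnt-low than in Wnt-high cells. Rdh10, which converts retinol to retinal, was 2.30 (SE 0.40, adjusted p = 0.00382) above Wnt-negative. Rbp4, the retinol carrier, was 2.03 (SE 0.43, adjusted p = 0.0189) above Wnt-negative, with an adjusted p of 0.0518 with the experiment as a block and up to 0.132 in the 6 of 15 fits with arrays left out that ended the call.

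Plpp3 and Acsm1, among the 15 largest differences, also act on lipids. Plpp3, a phosphatase that degrades lysophosphatidic acid at the cell surface, gave 13.73 to 16.35 (median 15.48) in Wnt-low, 9.29 to 12.97 (median 9.78) in Wnt-high and 5.01 to 6.62 (median 6.06) in Wnt-negative arrays. It was 4.80 (SE 0.58, adjusted p = 0.000296) above Wnt-high. Acsm1, a medium-chain acyl-CoA synthetase, was 4.64 (SE 0.54, adjusted p = 0.000277) above Wnt-high, and Itprid1, whose protein is named for binding inositol trisphosphate receptors, 4.84 (SE 0.58, adjusted p = 0.000287). In all 3 the Wnt-low arrays lay above every other array of their run.

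Surface and junction genes added uroplakins and claudins. Of 30 measured Ly6 and uroplakin family genes, 9 lay above both groups and 0 below, with a median of 0.27. The tetraspanin uroplakins Upk1b (8.35 to 10.45 in Wnt-low, 5.37 to 8.44 in Wnt-high, 4.65 to 6.64 in Wnt-negative) and Upk1a (8.98 to 11.09, 6.27 to 8.14 and 4.70 to 6.59) were 3.05 (SE 0.40) and 2.97 (SE 0.35) above Wnt-high, with adjusted p-values of 0.000442 and 0.000277. Lypd2, a GPI-anchored Ly6 protein of club cells, was 2.93 (SE 0.51, adjusted p = 0.00396) above Wnt-high and 10.07 above Wnt-negative. Its adjusted p was 0.0544 with the experiment as a block. Of 18 claudins, 4 lay above both, among them the paracellular channel gene Cldn10 (2.67 above Wnt-high, SE 0.37, adjusted p = 0.000726) and Cldn22 (2.07, SE 0.35, adjusted p = 0.00338). Cldn4 (1.87, adjusted p = 0.00754) and Cldn23 (1.09, adjusted p = 0.0463) lost the call in 3 and 11 of the 15 fits with arrays left out (adjusted p up to 0.0849 and 0.236). With the experiment as a block the adjusted p of Cldn23 was 0.157.

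Of 33 protease and inhibitor genes, 6 lay above both groups and 0 below, with a median of 0.02. Capn13, a calpain, was at least 2.28 (SE 0.33, adjusted p = 0.000971) above Wnt-high, where it was at background. Serpinb1a, an inhibitor of neutrophil proteases, was 1.29 (SE 0.14, adjusted p = 0.000225) above Wnt-high and Serpinf1 0.99 (SE 0.13, adjusted p = 0.000394). Spint1, an inhibitor of epithelial membrane proteases, gave 11.31 or more in every array and was 0.68 (SE 0.10, adjusted p = 0.00156) above Wnt-high.

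The machinery that makes and glycosylates secreted proteins contributed fewer members. Of 39 mucin-type glycosyltransferases, 6 lay above both groups and 0 below, with a median of 0.00, and with the experiment as a block 3 lay above. St8sia6, a sialyltransferase, gave 7.21 to 9.89 (median 9.05) in Wnt-low, 4.20 to 6.93 in Wnt-high and 3.49 to 4.60 in Wnt-negative arrays, and was 3.83 (SE 0.47, adjusted p = 0.000305) above Wnt-high. Galnt5, which starts O-glycan chains, was 2.57 (SE 0.30, adjusted p = 0.000277) above Wnt-high. St6gal1 was 1.15 (adjusted p = 0.013) above Wnt-negative and lost the call without experiment 8 or 9 (adjusted p up to 0.0799). St3gal4 was 1.07 (adjusted p = 0.0193) above Wnt-high and lost it in 5 of the 15 fits with arrays left out (adjusted p up to 0.172). With the experiment as a block the adjusted p of St3gal4 was 0.0622. Of 36 secretory pathway and unfolded protein response genes, 13 met the rule and 4 passed the stricter test. These were Agr2, Ern2, the disulfide isomerase gene Pdia5 (1.67 above Wnt-negative, SE 0.26, adjusted p = 0.00178) and the chaperone gene Calr (0.46, SE 0.11, adjusted p = 0.0303). The call of Calr ended in 9 of the 15 fits with arrays left out (adjusted p up to 0.205), and with the experiment as a block its adjusted p was 0.122.

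A minority of the genes that start the multiciliated cell programme lay above both groups, among them Mcidas and Cdc20b. Of 30 multiciliogenesis genes, 10 met the rule above both groups and 1 below, and 4 passed the stricter test above and 0 below, with a median of 0.22 from the midpoint. Of 23 ciliated cell genes, 0 met the rule (limma, midpoint test) and 0 passed the stricter test in either direction, although their median was 0.52. Mcidas, the coactivator that commits cells to making many centrioles, gave 5.32 to 7.95 (median 6.19) in Wnt-low, 4.12 to 5.83 (median 4.62) in Wnt-high and 3.92 to 5.28 (median 4.71) in Wnt-negative arrays. It was 1.51 (SE 0.22, adjusted p = 0.00127) above Wnt-high. Cdc20b, its direct neighbour and a gene of centriole amplification, gave 5.16 to 7.43 (median 5.88), 3.76 to 5.36 (median 4.39) and 3.71 to 4.73 (median 4.24), and was 1.58 (SE 0.20, adjusted p = 0.000388) above Wnt-high. Both stayed within a few log2 units of background, and in both the Wnt-low arrays lay above all others of their run.

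By start position, RefSeq places the miR-449 genes after Cdc20b and before Gpx8. This order does not tell whether they lie inside Cdc20b, so the signals of Mir449c and Cdc20b may not be separate. Because Mir449c also lay above both groups, the mature sequences of miR-449c-5p and miR-449a-5p are shown (RefSeq, GRCm38.p6, chr13:113036008-113036028 and chr13:113037549-113037570, plus strand), with the seed, bases 2 to 8, in capitals.
mmu-miR-449c-5p: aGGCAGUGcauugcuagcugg
mmu-miR-449a-5p: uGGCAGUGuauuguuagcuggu
They share the seed GGCAGUG, which miR-34a-5p and miR-34b-5p also carry. The probe set annotated to Mir449c, singled out after its values were seen, gave 4.32 to 7.02 (median 5.58) in Wnt-low, 3.08 to 5.30 (median 3.96) in Wnt-high and 3.31 to 5.20 (median 4.24) in Wnt-negative arrays. It was at least 1.30 (SE 0.21, adjusted p = 0.00271) above Wnt-negative, and both other groups were at background. Mir449a lay at background in all groups, and Mir449b differed by -0.16 (SE 0.19, adjusted p = 1) from Wnt-high, its nearer group. Gpx8, the next gene beyond the miRNAs, differed by -0.66 from Wnt-high and by 0.67 from Wnt-negative. Which form of the transcript these probes read is not given in the sources used here.

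Other early genes of the programme moved less. Ccno, the cyclin that neighbours Mcidas on its other side, met the rule at 0.61 (SE 0.19, adjusted p = 0.0406) above the midpoint, with 4.81 to 8.64 in Wnt-low, 4.44 to 7.28 in Wnt-high and 4.40 to 8.20 in Wnt-negative arrays, which overlapped. It did not pass the stricter test (adjusted p = 0.838), and its midpoint call ended in 7 of the 15 fits with arrays left out (adjusted p up to 0.161). The centriole assembly genes Plk4 (0.45, adjusted p = 0.0315) and Stil (at least 0.66, adjusted p = 0.0233) passed, and lost the call in 11 and 9 of those fits (adjusted p up to 0.171 and 0.109). With the experiment as a block their adjusted p-values were 0.234 and 0.152. Deup1, which builds the deuterosome on which centrioles are multiplied, gave 7.22 to 10.21 in Wnt-low, 8.16 to 9.88 in Wnt-high and 3.95 to 5.02 in Wnt-negative arrays, a difference of -0.76 (SE 0.29, adjusted p = 0.0645) from Wnt-high. The ciliated cell cadherin gene Cdhr3 gave 10.92 to 15.56 in Wnt-low, 16.39 to 17.42 in Wnt-high and 4.65 to 8.35 in Wnt-negative arrays. Its Wnt-low mean differed by -3.81 (SE 0.72) from Wnt-high and by 7.09 from Wnt-negative, a graded order. The 4 stricter calls on the multiciliogenesis list became 2 without the Wnt-low arrays of experiments 3 and 4. The ciliated list medians of these arrays were the highest (12.94) and the lowest (9.22) of the Wnt-low arrays of their run. With the experiment as a block, the 4 calls also became 2.

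**Figure D3:**
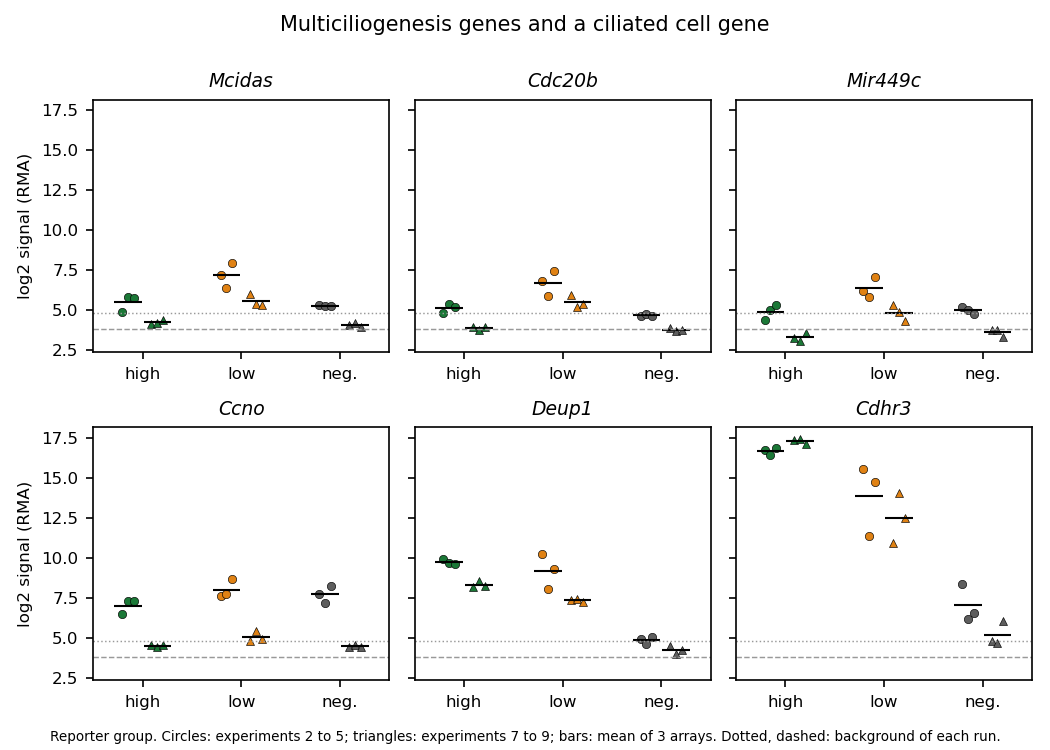
Log2 signal of 5 multiciliogenesis genes and the ciliated cell gene Cdhr3 in each of the 18 arrays, by reporter group, with symbols, bars and background lines by run as marked. Mcidas, Cdc20b and Mir449c are highest in Wnt-low arrays of each run, Ccno overlaps between groups, and Cdhr3 falls from 16.39 or more in Wnt-high to 8.35 or less in Wnt-negative arrays.

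Signalling genes gave scattered members. The shares above both groups by the stricter test were 3.57% of the Notch list and 6.06% of the chemokine and cytokine list. They were 8.7% of the interferon list and 5.56% of the antigen processing list, against 1.89% of all genes. Of 28 Notch pathway genes, Notch3 passed the stricter test, with 6.08 to 7.16 in Wnt-low, 4.46 to 5.82 in Wnt-high and 4.19 to 5.36 in Wnt-negative arrays, 1.43 (SE 0.20, adjusted p = 0.000665) above Wnt-high. Another 5 met the rule alone, named after their values were seen: Notch2 was 1.40 above the midpoint and the target genes Hes1 0.76, Nrarp 0.38 and Hey2 0.31, with Rfng, a modifier of Notch, at 0.44. Over the list the midpoint test called 6 genes higher and 3 lower, and 0 met the rule below both groups. The differences from the midpoint ran from -0.75 to 1.58, with a median of 0.00. Of 33 chemokine and cytokine genes, Kitl, the ligand of the KIT receptor, was 2.23 (SE 0.25, adjusted p = 0.000225) above Wnt-high, with 8.38 to 9.91 in Wnt-low arrays and at most 7.70 elsewhere. Cx3cl1 was 1.14 (SE 0.21, adjusted p = 0.00649) above Wnt-high, and lost the call without experiment 7 or 8 (adjusted p up to 0.0744). Of 23 interferon-stimulated genes, Ifit2 (at least 1.41, SE 0.25, adjusted p = 0.00405) and Oas1a (1.36, SE 0.27, adjusted p = 0.0129) passed. The call of Oas1a ended without experiment 7 or 8 (adjusted p up to 0.108), and with the experiment as a block its adjusted p was 0.0862. Of 18 antigen processing genes, Erap1, which trims peptides for class I, was 0.65 (SE 0.11, adjusted p = 0.00316) above Wnt-negative.

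Wnt pathway genes were not a large part of the set. Of 25 Wnt targets and feedback genes, 2 (8%) lay above both groups by the stricter test, with a median of -0.03. Of 40 ligand and receptor genes 1 (2.5%) did, with a median of -0.02. The share of all genes was 1.89%. Lgr6, a receptor for R-spondins, gave 4.33 to 5.49 in Wnt-low, 3.55 to 4.74 in Wnt-high and 3.42 to 4.53 in Wnt-negative arrays, at least 0.91 (SE 0.16, adjusted p = 0.00354) above Wnt-high, where it was at background. Sfrp1, a secreted inhibitor, was 0.77 (SE 0.15, adjusted p = 0.00805) above Wnt-high, and Rspo1, a secreted enhancer, 0.61 (SE 0.15, adjusted p = 0.0394). Their calls ended in 3 and 8 of the 15 fits with arrays left out (adjusted p up to 0.0992 and 0.305), and with the experiment as a block the adjusted p of Rspo1 was 0.152. The feedback genes most used as readouts did not follow the pattern. Axin2 gave 3.78 to 7.21 in Wnt-low, 3.87 to 6.20 in Wnt-high and 5.30 to 7.69 in Wnt-negative arrays, a difference of -0.50 (SE 0.19, adjusted p = 0.0866) from the midpoint. Nkd1 gave 5.60 to 13.01, 5.33 to 10.21 and 12.30 to 13.84 in the same order of groups, with differences of 2.16 from Wnt-high and -3.82 from Wnt-negative. Wif1, a secreted inhibitor, was graded the other way, with 5.94 to 10.04 in Wnt-low, 11.45 to 12.28 in Wnt-high and 4.33 to 5.97 in Wnt-negative arrays. Lgr5 was at background in all groups.

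Among 46 transcription factor genes of lung epithelium, 3 passed the stricter test above both groups and 0 below, with a median of 0.09. Besides Spdef these were Grhl1, a grainyhead factor of epithelial barriers, at 1.07 (SE 0.18, adjusted p = 0.00334) above Wnt-high, and Pax9, a paired box factor of the foregut, at 0.97 (SE 0.16, adjusted p = 0.00298). Both stayed at or below 7.28 in every Wnt-low array, and the groups were separate within each run.

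Lists of other cell types held few members, and some of those are not specific to the type. Of 17 ionocyte genes, 2 passed. Atp6v1b1, a proton pump subunit, was 4.23 (SE 0.43, adjusted p = 0.000225) above Wnt-high, with 8.80 to 11.13 in Wnt-low and at most 7.45 elsewhere, and Asgr1, a lectin receptor, was at least 0.91 (SE 0.12, adjusted p = 0.000442) above Wnt-high. Foxi1, the factor that defines ionocytes, singled out after its values were seen, met the rule below both groups instead, at -0.32 (SE 0.07, adjusted p = 0.0062) from the midpoint. Of 11 endothelial genes, Kdr, the VEGF receptor, passed with 9.56 to 11.99 in Wnt-low, 5.29 to 8.78 in Wnt-high and 3.78 to 5.16 in Wnt-negative arrays, 4.09 (SE 0.48, adjusted p = 0.000277) above Wnt-high, while 9 of the 11 were at background in all groups. Of 8 mesothelial genes, Msln (at least 2.52, SE 0.53, adjusted p = 0.0181) and Upk1b passed, while Wt1 was at background. The call of Msln ended without experiment 5 or 7 (adjusted p up to 0.134), and with the experiment as a block its adjusted p was 0.0749. Of 11 fibroblast genes, Fn1 (fibronectin) was 1.50 (SE 0.19, adjusted p = 0.000422) above Wnt-high, with 8 of 11 at background. Of 21 tuft cell genes, Bmx (1.58, SE 0.24, adjusted p = 0.00137) and Alox5ap (at least 0.64, SE 0.15, adjusted p = 0.0316) passed, and 15 of 21 were at background in all groups. The call of Alox5ap ended in 11 of the 15 fits with arrays left out (adjusted p up to 0.235), and with the experiment as a block its adjusted p was 0.0571.

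Of 20 basal cell genes, the keratin gene Krt15 was 1.18 (SE 0.26, adjusted p = 0.0211) above Wnt-high. Its call ended in 3 of the 15 fits with arrays left out (adjusted p up to 0.131), and with the experiment as a block its adjusted p was 0.0574. Krt5, the usual basal cell marker, gave 4.16 to 5.45 in Wnt-low, 4.11 to 5.05 in Wnt-high and 3.72 to 5.05 in Wnt-negative arrays. It was 0.47 (SE 0.15, adjusted p = 0.0408) above the midpoint, and this midpoint call ended in 10 of the 15 fits (adjusted p up to 0.111) and with the experiment as a block (adjusted p = 0.107). Of 24 type I genes, Sema3a was 1.01 (SE 0.23, adjusted p = 0.0303) above Wnt-negative, with an adjusted p of 0.0942 with the experiment as a block and up to 0.198 in the 8 of 15 fits that ended the call. Evpl, an envelope protein on the squamous list of 18, was 0.27 (SE 0.04, adjusted p = 0.00293) above Wnt-negative. No stricter call fell on the alveolar type II (22 genes), neuroendocrine (17), immune (14), class II (11), cell cycle (31), immediate early (23), ribosomal (16) or fatty acid and cholesterol (29) lists in either direction, where 5 cell cycle (16.1%), 7 ribosomal (43.8%) and 2 immediate early genes (8.70%) met the rule above both, against 6.93% of all genes. The median of the immediate early list, genes that respond quickly to stimuli such as cell dissociation, was 7.71 to 8.05 in the Wnt-low arrays of experiments 7 to 9, 6.64 to 7.34 in Wnt-high and 6.75 to 7.10 in Wnt-negative. In experiments 2 to 5 it was 9.23 to 9.97, 8.99 to 9.34 and 9.62 to 10.07, which overlapped, and its part in the results was not tested. Over all genes the stricter test had 1608 unadjusted p-values under 0.05 above both and 440 below. The list shares stand beside the 1.89% of all genes, and the 3.41% of genes above background, that lay above both.

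**Figure D4:**
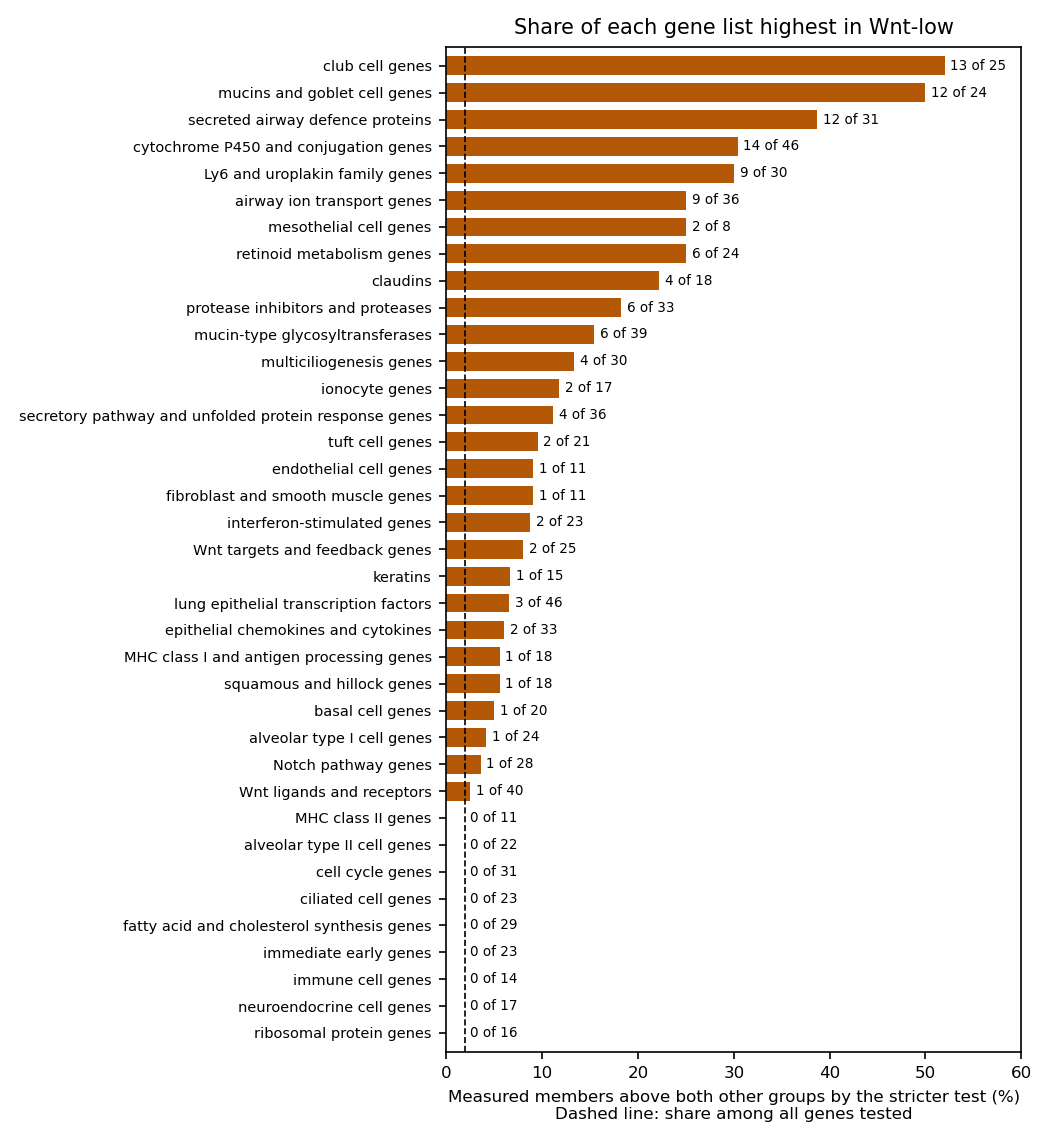
Share of the measured members of each of 37 gene lists that lay above both other groups by the stricter test (x axis, percent), with the count beside each bar. The club and mucin lists reach 52% and 50%, against the 1.89% of all genes marked by the dashed line, and 9 lists are at 0. Among genes above background the share was 3.41%, which is not marked. The lists were chosen with earlier results of these data known and share some genes, so the bars are descriptions and not tests.

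Alveolar genes showed where the Wnt-low group lay on the graded axis. The type II gene Lamp3 gave 8.98 to 17.01 in Wnt-low arrays, 17.24 to 17.99 in Wnt-negative and 6.55 to 15.10 in Wnt-high, a difference of -0.26 (adjusted p = 0.908) from the midpoint. The type I gene Ager gave 11.57 to 15.81, 15.50 to 16.24 and 7.20 to 14.34 in that order, a difference of 0.49 (SE 0.64, adjusted p = 0.702) from the midpoint. Sftpc, the surfactant protein C gene, lay at 18.54 or more in every array, close to the array maximum, where differences are hard to see.

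Genes below both groups were fewer and lay closer to the other groups. Among the 59 that passed the stricter test the largest difference from the nearer group was that of Fam126a, which encodes hyccin, a membrane scaffold for phosphoinositide synthesis. It gave 4.96 to 8.36 (median 6.67) in Wnt-low, 6.99 to 9.26 (median 8.01) in Wnt-high and 6.82 to 9.08 (median 8.02) in Wnt-negative arrays. It was 1.28 below Wnt-negative (difference -1.28, SE 0.18, adjusted p = 0.000834). The ranges overlap only because the runs differ in scale: within each run every Wnt-low array was the lowest. Clmn, which encodes the actin-binding protein calmin, gave 6.96 to 9.72 (median 8.17), 8.55 to 9.94 (median 9.48) and 8.58 to 10.73 (median 9.77) in the same order of groups, a difference of -1.18 (SE 0.21, adjusted p = 0.0041) from Wnt-high. Fgf11, an intracellular fibroblast growth factor homologue, gave 5.63 to 9.07 (median 7.40), 7.71 to 10.61 (median 9.07) and 7.08 to 9.61 (median 8.25), a difference of -0.94 (SE 0.17, adjusted p = 0.00473) from Wnt-negative. These 3 kept the call in all 15 fits with arrays left out and with the experiment as a block (adjusted p 0.015, 0.0209 and 0.0263).

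The other 12 of the 15 largest differences below both groups lost the call in 2 to 12 of those 15 fits (adjusted p up to 0.263, for Cybrd1). Of these, 5 kept it with the experiment as a block. They were Myo5b, a motor of apical vesicle recycling (-0.99 from Wnt-high, SE 0.19, adjusted p = 0.00754), Cpn1, a carboxypeptidase subunit (-0.98, SE 0.19, adjusted p = 0.0085), Sptbn1, a β-spectrin of the membrane skeleton (-0.96, SE 0.19, adjusted p = 0.0104), Ddhd2, a phospholipase (-1.03 from Wnt-negative, SE 0.20, adjusted p = 0.0105), and Adam22, a catalytically inactive adhesion receptor (-1.01, SE 0.20, adjusted p = 0.0117). The remaining 7 did not pass with the experiment as a block: the adjusted p was 0.0979 for Hepacam, 0.075 for Fam189a2, 0.0584 for Rnf125, 0.0529 for Tspan2, 0.159 for Cybrd1, 0.243 for Gna13 and 0.0835 for Eif4e3. Their differences ran from -1.17 (Hepacam) to -0.78 (Eif4e3).

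**Figure D5:**
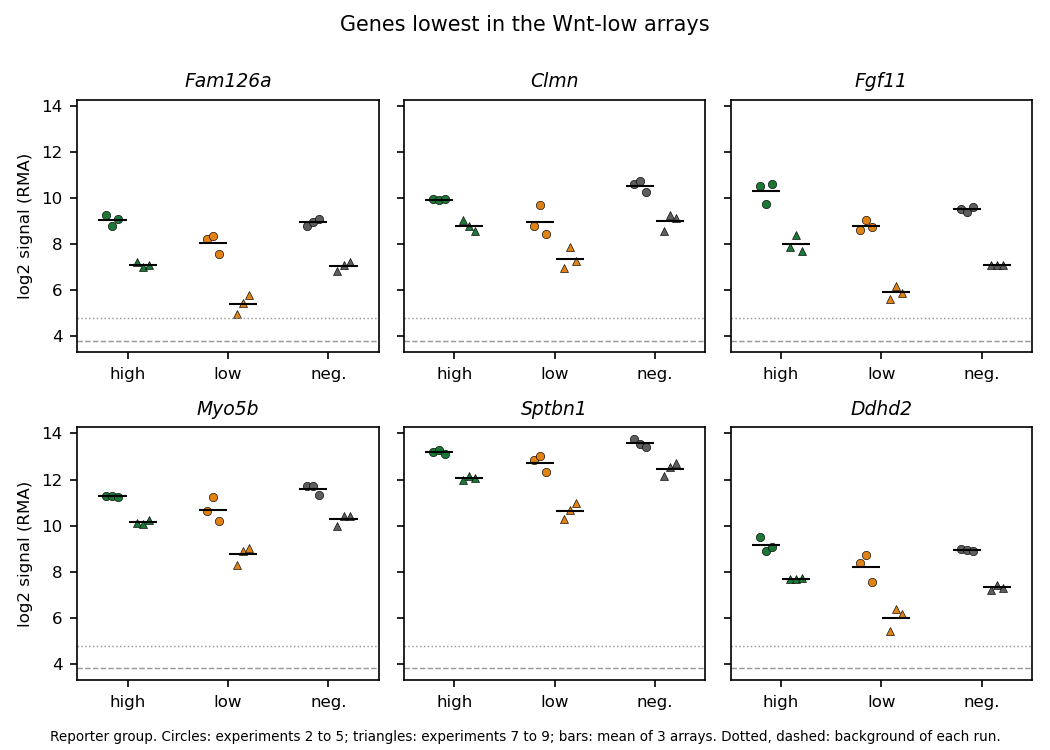
Log2 signal of 6 genes below both groups in each of the 18 arrays, by reporter group, with symbols, bars and background lines by run as marked. In each run the Wnt-low bar is the lowest. Estimated over both runs together, the difference from the nearer group is 1.28 for Fam126a and 0.94 for Fgf11, and the gap within a run can differ from this.

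Of 29 genes of fatty acid and cholesterol synthesis, 4 met the rule below both groups, against 2.31% of all genes, and 1 above, the 4 named after their values were seen. Srebf2, a factor that controls cholesterol synthesis, was -1.09 (SE 0.17, adjusted p = 0.000398) from the midpoint, the synthesis genes Lss -1.42 (SE 0.27, adjusted p = 0.00189) and Sqle -0.69 (SE 0.12, adjusted p = 0.000944), and Lpin1, a phosphatase of glyceride synthesis, -0.94 (SE 0.13, adjusted p = 0.000199). None of the 4 passed the stricter test (adjusted p = 0.0821, 1, 0.0867 and 0.318), and Lss and Lpin1 lay much closer to Wnt-high than to Wnt-negative.

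Of the 570 members above both groups 521 were protein-coding, and some were neighbours on the chromosome. In RefSeq's order of protein-coding genes, 82 of the 521 lay directly beside another member, in 39 stretches. Neighbours were not counted for other sets of genes, so these numbers do not show that members cluster on the chromosomes. The longest was Rsad1, Acsf2, Chad and Lrrc59, and stretches of 3 were Fmo1, Fmo2 and Fmo6, and Casp1, Casp4 and Casp12. Pairs, picked after their values were seen, included Muc5b with Muc5ac, Scnn1b with Scnn1g, Mcidas with Cdc20b and Adh7 with Adh1. Several pairs are related genes whose probe sets may share sequence, such as Cyp4a12a with Cyp4a12b and Retnla with Retnlg.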

How the data were processed

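The authors deposited log2 signals of 18 Affymetrix arrays, made with RMA per the submitters' processing notes; the sources used here name no software version, library file or genome build. Of 72688 probe sets, 6732 were controls, and in the platform annotation 30604 had 1 gene symbol, 2146 several and 33206 none; symbols were updated to RefSeq (827 changed), and the probe set with the highest mean was kept, giving 30142 genes. Experiments 2 to 5 and 7 to 9 lie on different scales, so run was a fixed block in limma 3.58.1 (R 4.3.3; lmFit, eBayes; 14 residual degrees of freedom; Benjamini-Hochberg over all genes, threshold 0.05). The stricter test took the larger p of Wnt-low minus Wnt-high and Wnt-low minus Wnt-negative where both had 1 sign. Fits were tested on simulated data. Members and gene lists (37 lists, 850 of 944 genes measured) were chosen with earlier results of these data known. Named were the 15 largest stricter differences above and below (highest group mean above the median of all genes, unnamed loci left out), up to 4 stricter members of each list, and 20 fixed genes, with others marked as chosen after their values were seen. Arrays with the same experiment number deviated together (16 pairs, correlation 0.486 to 0.802, and 0.00339 to 0.516 after the run means were removed, 12 of 16 above 0.1), and the number, an experiment ID in the labels, was taken as a pairing. Alternatives changed the block, normalization, filter, probe set rule, variance prior, weights and arrays. The number of arrays limits the precision.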

Additional observations from a re-analysis of the deposited data

Results flagged for a closer look

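Among 458 sets of 6 arrays of 1 group and 1 named gene (range of at least 0.5), 13 held an array whose gap to the next exceeded Dixon's 95% critical value of 0.625. For 6 values of a single distribution, chance flags about 1 in 20 sets, and 13 of 458 is fewer than that. Each set here spans both runs, whose scales differ, so that rate does not hold. The difference between runs widens the range and can hide an array that stands apart. The Wnt-high array of experiment 4 accounted for 5: Muc5b at 12.79 (others 6.83 to 8.46), Tff2 at 13.98 (7.76 to 9.75), Ltf at 12.01 (7.68 to 9.16), Upk1b at 8.44 (5.37 to 6.49) and Msln at 5.53 (3.72 to 4.26). Without it the differences from Wnt-high were 7.54, 7.55, 5.64, 3.39 and 2.77.

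In the Wnt-high array of experiment 2, Scgb1a1 was low at 16.38 (others 17.73 to 18.42) and Scgb3a2 at 14.02 (15.64 to 16.16). In Wnt-low arrays, Retnla was high in experiment 7 at 13.70 (9.88 to 10.80), and Agr2 (9.85, others 7.17 to 8.05) and Msln (9.46, others 5.38 to 6.66) in experiment 8. These arrays raise the Wnt-low means. Over 26 alternative settings, which include fits without each Wnt-low array, the differences from the nearer group varied. They ran from 3.05 to 4.87 for Retnla, 1.73 to 4.03 for Agr2 and 1.70 to 3.33 for Msln. In Wnt-negative arrays, Pigr reached 13.11 (6.13 to 7.00) and Cfb 7.90 (4.79 to 5.30) in experiment 7, and Vtcn1 was low in experiment 8 at 4.97 (5.61 to 5.79). Pigr, Cfb and Vtcn1 were chosen after their values were seen.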

How the results depend on the processing

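With the experiment as a fixed block (the replicate block, pairing by experiment number), 388 genes lay above both groups and 40 below by the stricter test, against 570 and 59; with a random block (consensus correlation 0.0733), 616 and 69. Of 143 named calls, 111 passed with the fixed block. The 143 include genes chosen after their values were seen, some of which are not described here. Without a block for the run, the counts fell to 335 for the midpoint, 280 above and 0 below by the rule, and 102 and 0 by the stricter test (limma; 9 below at an unadjusted p under 0.05). Experiments 2 to 5 alone gave 72, 66, 6, 0 and 0 (limma; 790 above and 163 below unadjusted); experiments 7 to 9 alone gave 354 above and 35 below by the stricter test. Quantile normalization gave 1511 below by the rule and 123 below by the stricter test, and array weights 138. With differences of at least 1 log2 unit from the nearer group, 282 and 14 met the rule and 256 and 8 the stricter test; with no overlap of arrays, 614 and 64 met the rule. Leaving out arrays gave 2940 to 4769 for the midpoint, and 1655 to 2173 above and 445 to 798 below by the rule. By the stricter test it gave 276 to 772 above and 14 to 129 below. The lowest counts came without experiment 8, except the 445 below by the rule, which came without experiment 5. The 14 below by the stricter test also came without experiment 9. Without the Wnt-low arrays of experiments 3 and 4, 840 lay above and 165 below by the stricter test, and without the Wnt-high array of experiment 4, an alternative chosen after seeing the data, 565 and 49. The cause was not tested, except that smaller sets hold fewer arrays.

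Of the 143 named calls, 91 held in all 15 fits that left out arrays, and 55 without a run block. Named results kept their direction in all but 6 of 3923 values (1 gene in 1 setting each): Lamp3 turned to 0.45 in experiments 2 to 5 alone, 0.32 without experiment 7, 0.58 without the Wnt-low array of experiment 7 and 0.10 without the Wnt-high array of experiment 4 (leaving out arrays gave -0.74 to 0.58), and in experiments 2 to 5 alone Nkd1 turned to 0.042 and Wif1 to 0.055, none past the threshold. Signals near background or near the top of the scale limit what can be measured.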

Other observations

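The following genes also lay above both groups by the stricter test. They were chosen after their values were seen, no list or test groups them, and they stand for no theme. Gmnn, the geminin gene, which lies in the same protein family as Mcidas and restrains DNA replication, was 3.15 (SE 0.40, adjusted p = 0.000419) above Wnt-negative, with 8.76 to 11.01 in Wnt-low, 5.37 to 8.04 in Wnt-high and 5.28 to 7.51 in Wnt-negative arrays. Ahr, the aryl hydrocarbon receptor gene, was 2.44 (SE 0.31, adjusted p = 0.0004) above Wnt-high, with 9.12 to 10.82 in Wnt-low and at most 8.92 elsewhere. Cyp1b1 and Aldh3a1, which are known targets of that receptor, were 2.58 (SE 0.28) and 3.73 (SE 0.38) above Wnt-high, both with an adjusted p of 0.000225. Nans, Nanp and Cmas, enzymes of sialic acid synthesis, were higher than the nearer group by 0.62 (adjusted p = 0.00522), 0.70 (adjusted p = 0.00818) and 0.63 (adjusted p = 0.0372). Gmds, an enzyme of fucose donor synthesis, was higher by 0.97 (adjusted p = 0.00669). In the fit blocked by experiment, Nanp, Cmas and Gmds did not pass (adjusted p = 0.0561, 0.141 and 0.069). Without experiment 8, Nans, Nanp and Gmds lost the call too (adjusted p = 0.0623, 0.053 and 0.0744), and Cmas lost it in 11 of the 15 fits with arrays left out (adjusted p up to 0.274).

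Shh, a hedgehog ligand, gave 4.29 to 7.46 in Wnt-low, 3.36 to 5.33 in Wnt-high and 3.41 to 5.03 in Wnt-negative arrays, at least 1.33 (SE 0.23, adjusted p = 0.00339) above Wnt-high, with the coreceptor gene Boc at 1.11 (SE 0.14, adjusted p = 0.000391) and Scube2, which helps release the ligand, at 0.69 or more (SE 0.11, adjusted p = 0.00254). Btc, an ErbB ligand, was 1.24 (SE 0.18, adjusted p = 0.000873) above Wnt-negative, and the receptor gene Erbb2 1.04 (SE 0.18, adjusted p = 0.00382) above Wnt-high, and its adjusted p was 0.0722 in the fit blocked by experiment and 0.0513 without experiment 8. The inflammasome adaptor gene Pycard was 0.70 (SE 0.11, adjusted p = 0.00175) above Wnt-high. Casp1 gave 7.57 to 10.38 in Wnt-low, 6.31 to 8.09 in Wnt-high and 2.91 to 4.20 in Wnt-negative arrays, 2.34 above Wnt-high (SE 0.44, adjusted p = 0.00794), and the adjusted p became 0.0851 in the blocked fit and up to 0.082 without experiment 5, 7 or 8. The double-stranded RNA sensor gene Tlr3 was 0.92 (SE 0.11, adjusted p = 0.000277) above Wnt-negative, and the flagellin receptor gene Tlr5 2.29 (SE 0.42, adjusted p = 0.00632), which lost the call without experiment 8 or 9 (adjusted p up to 0.0691).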
